A study of Mus musculus with 12 samples.

Results

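Expression levels were described for the protein-coding genes of mouse chromosomes 6 and 8 in wild-type embryonic stem cells and in a clone with a changed Oct4. Genes were taken as members where their mean level over all 12 libraries was at least 20 CPM, the count scaled to a common library total. This left 852 of the 2148 protein-coding genes counted on these chromosomes, 382 of 1111 on chromosome 6 and 470 of 1037 on chromosome 8, out of 55416 genes in all. Of the 1296 genes below the limit, 640 still passed the count filter of the statistical fit and 291 had no count in any library. The chromosomes were selected on the C48S to WT contrast itself, so the ratios of C48S to WT are given below as a description with no test, and tests are confined to the effect of retinoic acid and to its difference between the lines. At the limit, Smim10l1 (log2 ratios of 1.30 before and 1.43 after retinoic acid), Lig4 (0.65 and 0.58) and Rassf8 (0.42 and 0.38) lay just inside, and Tk2 (0.91 and 0.33), Il17ra (0.48 and 0.15) and Siah1a (0.50 and 0.99) just outside.

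The cells were of a Bl/6J embryonic stem cell line. The genotype was wild type (WT) or C48S, which carried an Oct4 in which a cysteine was replaced by serine. The C48S libraries all derive from clone number 46, and effects of the mutation and of other features of that clone cannot be told apart. Undifferentiated cells of both genotypes were kept with the MEK inhibitor PD (1 µM), the GSK3 inhibitor CHIR (3 µM) and ascorbic acid. Differentiating cells of both genotypes received retinoic acid (RA, 1.5 mg/L) without the cytokine LIF for 2 days. Each of the 4 groups held 3 libraries of RNA depleted of ribosomal RNA. Separate cultures are not stated for the 3 of a group, and p-values then reflect only the scatter of these libraries, which can be technical.

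Cells that carry an additional copy of a whole chromosome tend to transcribe its genes in proportion to the number of copies. Single genes can depart from that proportion where feedback, a limiting regulator or a change of cell state acts on them, and a gene whose level stays near that of normal cells is called buffered. Cultured mouse embryonic stem cells are known to gain whole chromosomes, chromosome 8 among the most frequent of them. The number of chromosomes per cell was not analysed here. A ratio of 1.5, the ratio of 3 copies to 2, serves below only as a yardstick for transcript levels.

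Library totals lay between 8678088 and 13597098 counts, and 17940 genes were tested. The third library of undifferentiated C48S stood apart from its replicates: the chi-square per degree of freedom between their counts was 9.66 and 9.88, against at most 2.26 for any other pair of replicates. The summed level of 10 embryonic stem cell markers was 5047 to 5216 CPM in undifferentiated WT, 4864 to 5317 CPM in undifferentiated C48S, 366 to 381 CPM in WT after RA and 660 to 691 CPM in C48S after RA. Levels are given in CPM scaled by the trimmed mean of M-values (TMM), and the order of libraries in each group is that of the replicate numbers.

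The ratios of C48S to WT on both chromosomes were displaced upwards as a body, by close to the same amount on each and in both states. In undifferentiated cells the median log2 ratio was 0.57 on chromosome 6, a level 1.49-fold that of WT, and 0.51 on chromosome 8, a level 1.43-fold. After RA the medians were 0.66 (1.58-fold) and 0.59 (1.50-fold). Over 6199 protein-coding genes of the other autosomes chosen with the same filters, leaving out chromosome 11, the medians were -0.01 and 0.06. Relative to those genes, chromosome 6 stood 0.59 higher before and 0.60 higher after RA, and chromosome 8 stood 0.53 higher in each state. The opposite displacement on chromosome 11, which is why that chromosome was left out, was -0.53 and -0.54 over 712 genes relative to the same autosomes. In bulk libraries such as these, a higher level in every cell and a much higher level in some of the cells cannot be told apart.

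The body of the distribution moved with little change in width. The interquartile range of the log2 ratios was 0.54 on chromosome 6 and 0.46 on chromosome 8 before RA, beside 0.51 on the other autosomes. After RA it was 0.48, 0.43 and 0.44. On chromosome 6, 328 genes (85.9%) were above equality before RA and 361 (94.5%) after it, and on chromosome 8 there were 419 (89.1%) and 443 (94.3%). On the other autosomes 49.1% and 57.9% were above equality. At an edgeR adjusted p under 0.05, 695 members were higher and 74 lower in undifferentiated C48S, beside 27.5% higher and 28.1% lower of all genes tested. After RA 768 were higher and 26 lower, beside 28.8% and 25.7%. As the chromosomes were selected on this contrast, these counts only describe them.

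**Figure D1:**
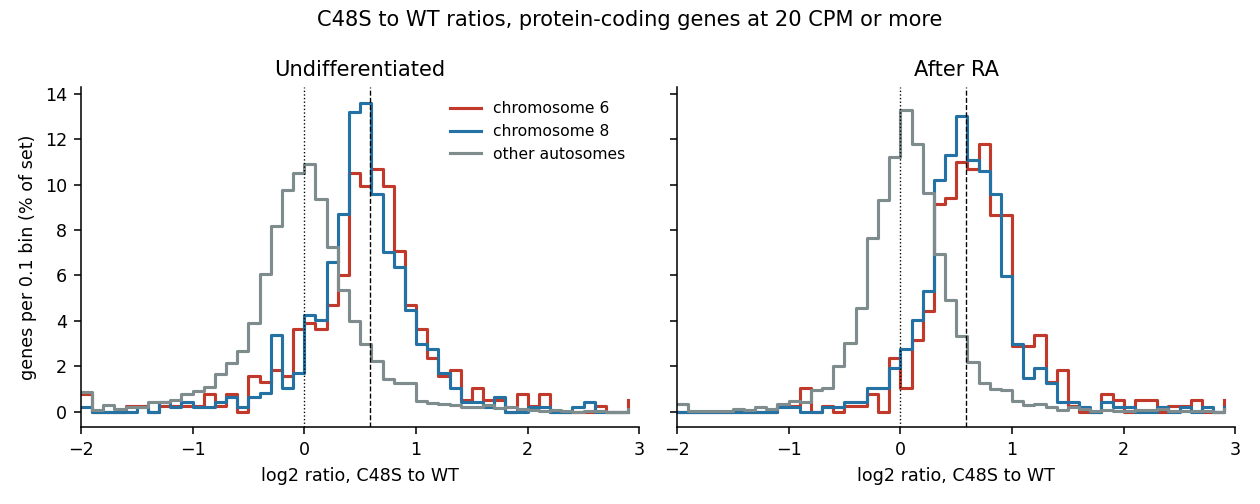
Share of genes (percent of each set) in steps of 0.1 of the log2 ratio of C48S to WT, before RA (left) and after it (right), for the 382 genes of chromosome 6, the 470 of chromosome 8 and 6199 of other autosomes. The dotted line marks equality and the dashed line a 1.5-fold ratio; values beyond the axis are counted in its end steps, and both chromosomes form a body of similar width centred near the dashed line while the other autosomes centre near equality.

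The displacement was alike in every C48S library. Each library was summarised by the median, over the members of a chromosome, of the log2 of its level over the WT mean in the same state, so that WT libraries centre on 0 by construction. In undifferentiated C48S this median was 0.555, 0.562 and 0.555 on chromosome 6 and 0.485, 0.483 and 0.546 on chromosome 8. In C48S after RA it was 0.652, 0.654 and 0.649 on chromosome 6 and 0.578, 0.588 and 0.579 on chromosome 8. The 12 values of WT libraries on these chromosomes lay between -0.017 and 0.013, so C48S and WT libraries did not overlap on either chromosome. The third undifferentiated C48S library, which stood apart above, was the highest of its group on chromosome 8 and level with another on chromosome 6. Without it, chromosome 6 stood 0.58 and chromosome 8 0.50 higher than the other autosomes before RA, an alternative chosen after the data were seen.

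The share of all counts that fell on members tells the same in another unit. Members of chromosome 6 took 4.22 ± 0.0115% of the counts of undifferentiated WT libraries and 6.15 ± 0.0231% of those of C48S (SD, n = 3). After RA their share was 4.89 ± 0.0173% in WT and 6.77 ± 0.0200% in C48S. Members of chromosome 8 took 3.95 ± 0.0153% and 5.79 ± 0.0321% before RA, and 4.03 ± 0.00577% and 5.89 ± 0.0115% after it. No WT library reached the share of any C48S library in the same state.

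**Figure D2:**
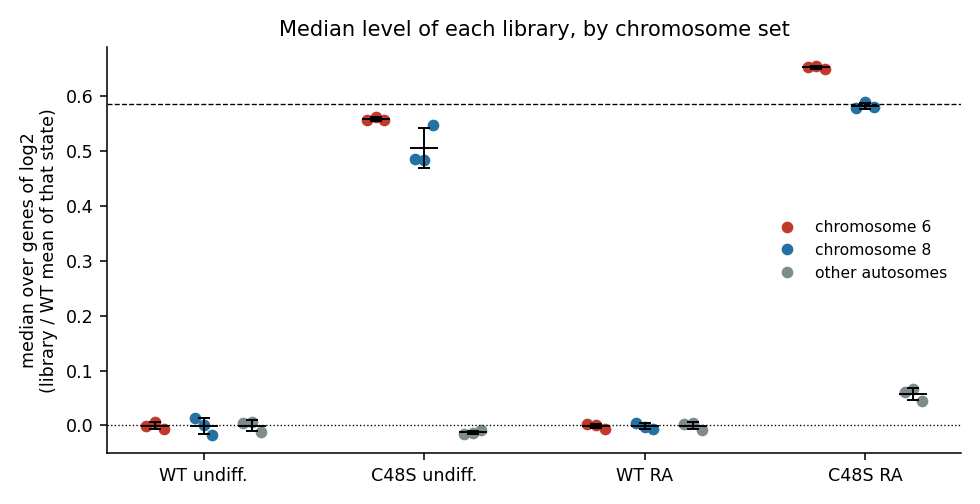
Median over genes of the log2 level of each library relative to the WT mean in the same state, for chromosome 6, chromosome 8 and the other autosomes in the 4 groups; points are libraries and bars the mean ± SD of 3. The C48S libraries lie between 0.483 and 0.654 on chromosomes 6 and 8, around the dashed line at a 1.5-fold ratio, and all other points lie near 0.

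The higher level ran along the whole length of both chromosomes. In windows of 10 Mb, the median ratio was above equality in all 15 windows of chromosome 6 and all 13 of chromosome 8, in both states. Among the 9 windows of chromosome 6 with at least 20 members, the medians ran from 0.44 (30 to 40 Mb, 35 genes) to 0.74 (40 to 50 Mb, 21 genes) before RA and from 0.52 (30 to 40 Mb) to 0.84 (50 to 60 Mb, 24 genes) after it. The window of 50 to 60 Mb holds the Hoxa cluster. Among the 9 such windows of chromosome 8, they ran from 0.41 (20 to 30 Mb, 36 genes) to 0.61 (40 to 50 Mb, 28 genes) before RA and from 0.41 (90 to 100 Mb, 32 genes) to 0.68 (10 to 20 Mb, 29 genes) after it. The lowest window of all, 0.33 after RA at 50 to 60 Mb of chromosome 8, rested on 6 genes.

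Level and transcript length made little difference to the centre. With members in 3 equal groups of 284 by mean level, the median ratio from low to high was 0.59, 0.51 and 0.50 before RA and 0.58, 0.59 and 0.66 after it. By exon length it was 0.57, 0.52 and 0.52 before RA and 0.66, 0.63 and 0.59 after it. The interquartile range was narrowest for the most highly counted members before RA, 0.41 against 0.56 for the lowest.

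**Figure D3:**
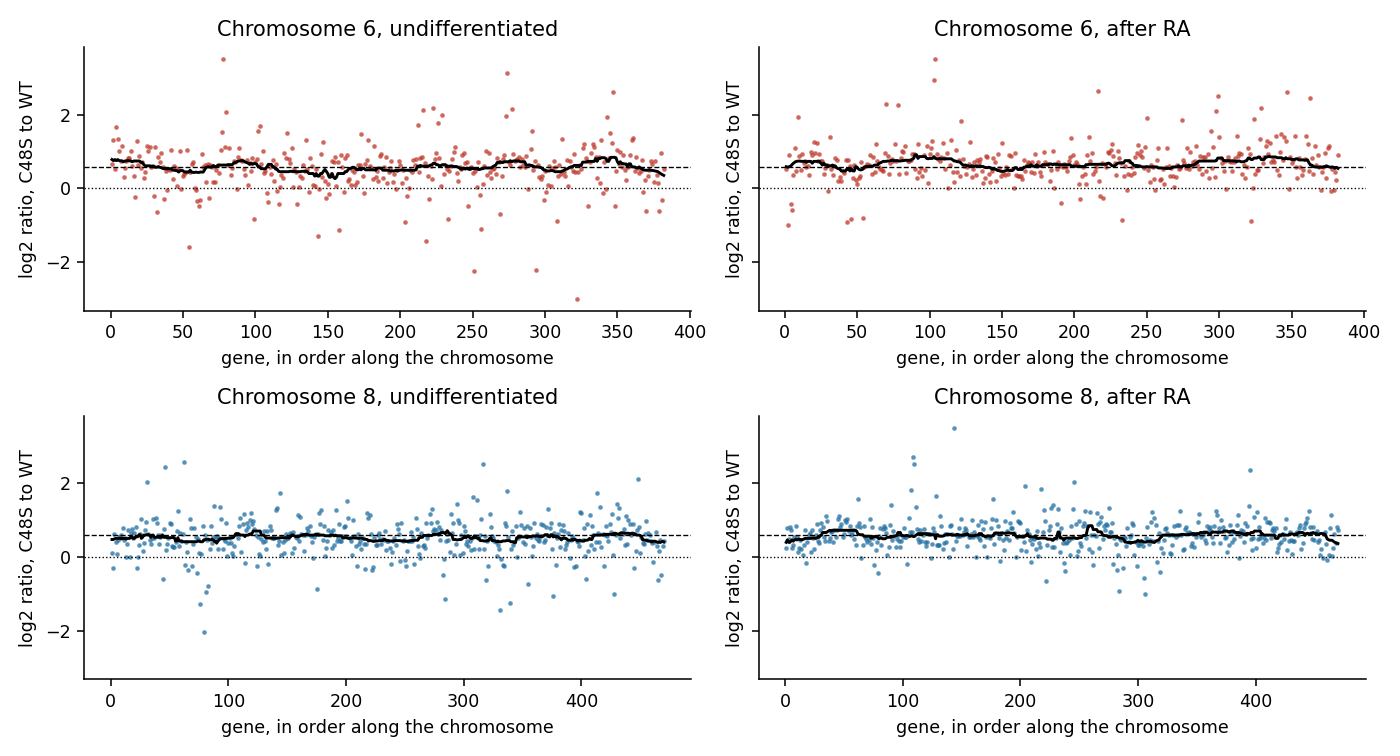
Log2 ratio of C48S to WT of each member, in order along chromosome 6 (top) and chromosome 8 (bottom), before RA (left) and after it (right). The black line is the running median of 31 genes; it stays above the dotted line of equality and near the dashed line of a 1.5-fold ratio throughout, and 2 values in each state that lie beyond the range of -3 to 3.5 are drawn at its edge.

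Members were sorted by where their ratio fell in steps around a 1.5-fold level. A ratio between 1.22-fold and 1.84-fold was taken as near 1.5-fold, a ratio between 0.816-fold and 1.22-fold as near-equal, a lower one as opposite and a higher one as above. In both states alike, 319 members (37.4%) were near 1.5-fold, 129 on chromosome 6 and 190 on chromosome 8. Only 39 (4.58%) were near-equal in both states, the pattern called buffered above, 9 on chromosome 6 and 30 on chromosome 8. The opposite class held 8 (0.939%), 3 and 5 on the respective chromosomes. The above class held 60 (7.04%), 36 and 24. The class of the remaining 426 (50.0%) differed between the states.

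The same sorting of the other autosomes, with every limit moved down by log2 1.5 so that it centres on equality, gave 38.2% in the central class, 3.90% in the class below it, 0.968% in the lowest, 9.76% in the highest and 47.2% that differed by state. The shares on chromosomes 6 and 8 were thus close to those that the ordinary spread of C48S to WT ratios on other autosomes gives around its own centre. Within a single state, 473 members (55.5%) were near 1.5-fold, 169 (19.8%) near-equal, 50 (5.87%) opposite and 160 (18.8%) above before RA. After RA there were 531 (62.3%), 118 (13.8%), 18 (2.11%) and 185 (21.7%). On the other autosomes with the limits moved, the corresponding shares were 55.0, 17.9, 5.02 and 22.1% before RA and 61.6, 12.6, 1.92 and 23.9% after it.

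The classes rest on point estimates, and each ratio has a measurement error. The 95% interval of the log2 ratio had a median width of 0.14 to either side. It held a 1.5-fold ratio in 275 members before RA and in 303 after it, and lay below equality in 76 and 26. When a member had to hold 1.5-fold and leave out equality within its interval in both states, 122 were near 1.5-fold. With the matching demand for equality, 8 were near-equal (Tigd2, Elmod2, Dnaja2, Rbl2, Egln1, Cmtm4, Slc7a2 and Kxd1). The whole interval lay below equality in both states in 11 members and above 1.5-fold in 124. Those 11 were the 8 of the opposite class together with Adamts9, Lrig1 and Zfp703.

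**Figure D4:**
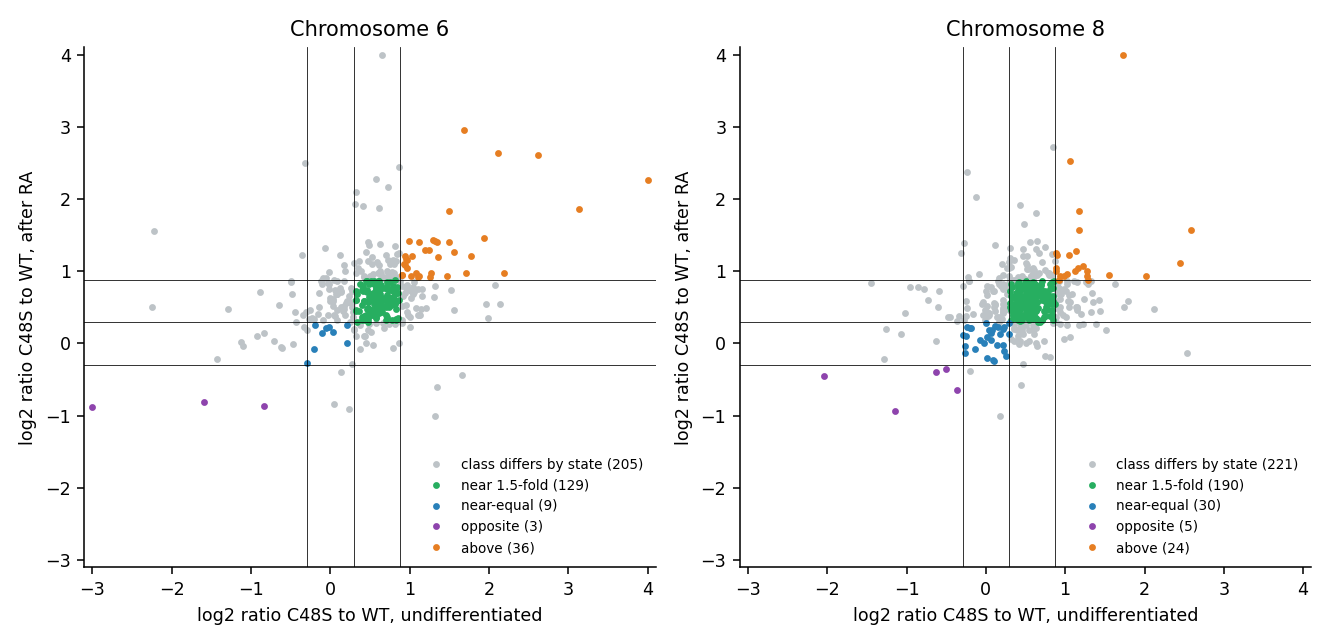
Log2 ratio of C48S to WT before RA (x axis) and after RA (y axis) of each member of chromosome 6 (left) and chromosome 8 (right), coloured by class, with the class limits as thin lines. The densest part lies in the central square of near 1.5-fold in both states (129 and 190 genes), the opposite corner holds 3 and 5 genes, and 4 genes beyond the range of -3 to 4 are drawn at its edge.

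Starting regions of 3 members are shown to make the classes concrete, each the most highly counted member of its class with an entry. They run from 250 bases before to 50 bases after the annotated start, 5′ to 3′ on the gene's strand, from RefSeq on GRCm38.p6, with CG pairs in capitals. Gapdh stands for the near 1.5-fold class (chr6:125165724-125166023, minus strand, 12 CG pairs), Stra8 for the opposite class (chr6:34920698-34920997, plus strand, 10 CG pairs) and Ncapd2 for the above class (chr6:125191537-125191836, minus strand, 29 CG pairs). Entries matched 662 of the 852 members (77.7%), too few to compare CG content between classes. Gapdh and Ncapd2 are neighbours, so the near 1.5-fold and above classes stood side by side on the chromosome.
Gapdh: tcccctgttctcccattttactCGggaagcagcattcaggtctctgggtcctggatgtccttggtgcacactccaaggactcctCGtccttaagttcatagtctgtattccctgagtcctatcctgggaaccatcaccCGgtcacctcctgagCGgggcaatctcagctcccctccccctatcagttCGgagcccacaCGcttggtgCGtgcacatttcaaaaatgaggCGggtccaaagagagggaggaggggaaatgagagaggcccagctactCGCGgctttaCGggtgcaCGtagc
Stra8: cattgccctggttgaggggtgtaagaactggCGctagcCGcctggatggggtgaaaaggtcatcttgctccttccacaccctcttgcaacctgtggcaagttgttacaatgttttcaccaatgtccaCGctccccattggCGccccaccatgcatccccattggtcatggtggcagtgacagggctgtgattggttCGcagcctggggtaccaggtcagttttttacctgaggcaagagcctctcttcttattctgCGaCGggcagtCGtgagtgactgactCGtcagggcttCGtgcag
Ncapd2: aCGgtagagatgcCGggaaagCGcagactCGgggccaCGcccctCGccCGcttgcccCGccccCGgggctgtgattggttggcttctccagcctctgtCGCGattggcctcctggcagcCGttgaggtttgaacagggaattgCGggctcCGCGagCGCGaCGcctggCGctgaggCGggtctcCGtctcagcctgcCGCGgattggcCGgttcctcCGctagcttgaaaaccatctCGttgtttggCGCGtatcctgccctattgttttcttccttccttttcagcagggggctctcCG

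Of the members closest to 1.5-fold in both states, Strap and Cand2 on chromosome 6 changed their level with RA in opposite directions. Strap, a protein of the complex that assembles small nuclear ribonucleoproteins (chr6:137712076-137728930, GRCm39, as for all gene positions below), was at 289, 279 and 279.8 CPM in undifferentiated WT and 412, 415 and 444 CPM in C48S. The levels after RA were 133, 132 and 134 CPM in WT and 198, 201 and 196 CPM in C48S. The C48S libraries were above all WT libraries in both states, with log2 ratios of 0.58 ± 0.045 and 0.58 ± 0.048 (SE), although the level itself fell with RA (log2 change -1.09 ± 0.048 in WT; edgeR adjusted p = 5.58e-21). Cand2, which binds cullins of ubiquitin ligases (chr6:115751499-115782518), went the other way with RA: 60.6, 60.8 and 61.8 CPM in undifferentiated WT, 87.1, 85.7 and 94.7 CPM in C48S, then 117, 118 and 119 CPM in WT and 178, 178 and 182 CPM in C48S. It rose with RA by 0.95 ± 0.055 in WT (edgeR adjusted p = 2.27e-17), with log2 ratios of 0.55 ± 0.056 before and 0.61 ± 0.051 after RA. Both genes were picked for ratios close to 1.5-fold in both states, so a small difference between the states follows from that choice. The edgeR adjusted p of that difference, 0.965 for Strap and 0.554 for Cand2, is thus only descriptive.

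The other members named as nearest to 1.5-fold on chromosome 6 were Snd1 and Luc7l2. Snd1, a nuclease-domain protein of RNA silencing and splicing (chr6:28475138-28935161), was at 233, 231 and 228 CPM in undifferentiated WT, 345, 332 and 364 CPM in C48S, 251, 262 and 241 CPM in WT after RA and 379.5, 365 and 362 CPM in C48S after RA. Luc7l2, a splicing factor that acts in choosing splice sites (chr6:38528269-38586405), was at 194, 193 and 208 CPM, 296, 320.2 and 298 CPM, 181, 172 and 189 CPM and 262, 264 and 279 CPM in the same order. Their log2 ratios were 0.59 ± 0.048 and 0.55 ± 0.047 for Snd1 and 0.62 ± 0.05 and 0.57 ± 0.05 for Luc7l2, and no WT library overlapped a C48S library of its state.

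On chromosome 8, Sugp2, a G-patch protein linked to splicing (chr8:70686876-70732565), was at a mean of 107 ± 2.81 CPM (SD, n = 3) in undifferentiated WT and at 160.4, 158 and 166 CPM in C48S, and at 72, 67.6 and 72.5 CPM and 103, 105 and 107 CPM after RA. Edc4, the scaffold of mRNA decapping (chr8:106607513-106621540), was at 196, 204 and 210.3 CPM and 295, 300.0 and 304 CPM before RA and 159, 161 and 168 CPM and 242, 254 and 249 CPM after it. Both had all C48S libraries above all WT libraries, with ratios of 1.51- and 1.49-fold for Sugp2 and 1.47- and 1.53-fold for Edc4. Gnpat, the peroxisomal enzyme that begins the synthesis of ether lipids (chr8:125589772-125616796), had log2 ratios of 0.58 ± 0.057 and 0.63 ± 0.058. Cfdp1, a chromatin protein (chr8:112495123-112580923), had 0.57 ± 0.066 and 0.62 ± 0.069, with the third undifferentiated C48S library at 188 CPM against 153 and 146 CPM in the others. Gapdh, the glycolytic enzyme whose starting region is shown above (chr6:125138678-125143430), was at 3722, 3853 and 3684 CPM and 5221, 5177 and 5321 CPM before RA and 2933, 2906 and 2795 CPM and 4265, 4286 and 4252 CPM after it. Its log2 ratios were 0.48 ± 0.04 and 0.57 ± 0.04, and near-identical pseudogene copies elsewhere in the genome make its counts uncertain.

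Near-equal members had levels in C48S close to those in WT in both states. On chromosome 8, Dnaja2, a co-chaperone of the heat shock protein family (chr8:86264262-86281973), was at 218, 216 and 216 CPM in undifferentiated WT and 204, 203 and 212 CPM in C48S, and at 114, 129 and 118 CPM and 126, 124 and 125 CPM after RA. C48S was slightly below WT before RA and overlapped it after RA, with log2 ratios of -0.07 ± 0.049 and 0.05 ± 0.051. Cmtm4, a membrane protein of the MARVEL family (chr8:105074823-105122439), was at 132, 133 and 126 CPM and 126, 135 and 134 CPM before RA and 95.5, 106 and 94.7 CPM and 105, 103 and 107 CPM after it, overlapping in both states. Tpm4, a tropomyosin of the actin cytoskeleton (chr8:72884018-72906986), had log2 ratios of 0.06 ± 0.056 and 0.15 ± 0.053, and Gab1, an adaptor of receptor tyrosine kinases (chr8:81491067-81607148), 0.18 ± 0.045 and 0.13 ± 0.045.

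On chromosome 6, Impdh1, an enzyme of guanine nucleotide synthesis (chr6:29200433-29216363), was at 110.0, 119 and 105 CPM in undifferentiated WT and 99.1, 95.1 and 95.2 CPM in C48S, and at 114, 119.5 and 119.6 CPM and 118, 108 and 111 CPM after RA. Its C48S libraries were all below WT before RA and overlapped WT after it. Rnf181, a ubiquitin ligase of the RING type (chr6:72336697-72343939), had log2 ratios of -0.10 ± 0.054 and 0.14 ± 0.052, and Fkbp9, a prolyl isomerase of the endoplasmic reticulum (chr6:56809044-56856343), 0.21 ± 0.051 and 0.00 ± 0.049. Ube2h, a ubiquitin-conjugating enzyme (chr6:30211288-30304538), was at 58.6, 54.9 and 48.8 CPM in undifferentiated WT, 53.7, 54.2 and 49.4 CPM in C48S, 169.6, 189 and 177 CPM in WT after RA and 207, 213 and 201 CPM in C48S after RA. Its level rose with RA by 1.72 ± 0.062 in WT (edgeR adjusted p = 1.75e-23), and its log2 ratio went from -0.05 to 0.21. The differences between states of Rnf181 (edgeR adjusted p = 0.0104), Fkbp9 (0.018) and Ube2h (0.0177) passed the threshold but were lost when single libraries were left out (interaction values then in parentheses): for Rnf181 without WT undifferentiated replicate 1 (0.18) or WT RA replicate 3 (0.19), for Fkbp9 without C48S RA replicate 1 (-0.19), and for Ube2h without any of 5 libraries (0.19 to 0.23).

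The near-equal class also held Klf2, a transcription factor of naive pluripotency (chr8:73072877-73075500), at 382, 385 and 389 CPM in undifferentiated WT and 317, 297 and 355 CPM in C48S. The levels after RA were 30.2, 29.5 and 30.1 CPM and 29.4, 22.4 and 29.9 CPM, and C48S was below WT before RA and overlapped it after RA. Rbl2, a pocket protein that restrains the cell cycle, overlapped in both states, with log2 ratios of 0.06 ± 0.11 and 0.05 ± 0.1.

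For the 8 members of the opposite class, the libraries of the genotypes did not overlap in either state. The class was cut on the same libraries, so this lack of overlap only describes it. Other members were also lower in C48S in both states without reaching the class limit. Among them were Adamts9, Lrig1 and Zfp703, whose whole intervals lay below equality in both states. Stra8, a factor of meiotic entry named for its induction by RA (chr6:34897098-34916279), was at 9.96, 10.3 and 8.68 CPM in undifferentiated WT and 3.39, 3.3 and 2.9 CPM in C48S. The levels after RA were 408, 422 and 393 CPM in WT and 233, 238 and 225 CPM in C48S, so its log2 ratio was -1.59 ± 0.13 before and -0.81 ± 0.048 after RA. Its rise with RA was 5.39 ± 0.069 in WT and 6.17 ± 0.084 in C48S. No test of this rise is given, as Stra8 passed the level limit only through the RA libraries. Pdzrn3, a ubiquitin ligase with PDZ domains (chr6:101126570-101354858), had nearly the same ratio in both states: 19.9, 20.7 and 25.7 CPM against 10.4, 10.9 and 15.8 CPM before RA and 52.2, 48.6 and 52 CPM against 28.4, 26 and 29.6 CPM after it, with log2 ratios of -0.84 ± 0.13 and -0.86 ± 0.1. Tuba3a, an alpha tubulin (chr6:125255237-125263005), was at 71.9, 73.6 and 75.5 CPM in undifferentiated WT and 4.16, 3.94 and 6 CPM in C48S, then 13.9, 14.3 and 13.6 CPM and 7.84, 7.76 and 7.13 CPM after RA. A near-identical copy, Tuba3b, makes the counts of Tuba3a uncertain.

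The 5 on chromosome 8 were Adgra2, Neto2, Mmp15, Arhgap10 and Gpt2. Adgra2, an adhesion receptor that assists Wnt signals (chr8:27575611-27613464), was at 10.5, 14.9 and 13 CPM in undifferentiated WT and 3.99, 2.66 and 2.59 CPM in C48S, and at 106, 97.5 and 106 CPM and 73, 77.4 and 74.9 CPM after RA. Neto2, an accessory subunit of kainate receptors (chr8:86363217-86427553), was at 15.9, 17.4 and 17.5 CPM and 7.04, 8.74 and 7.24 CPM before RA and 41.8, 41.1 and 43.9 CPM and 20.7, 25.3 and 20.2 CPM after it. Mmp15, a membrane-bound matrix metalloproteinase (chr8:96078896-96101708), was at 18.8, 19.6 and 15.5 CPM and 11.7, 13.2 and 10.2 CPM before RA and 232, 220.5 and 229.5 CPM and 176, 164 and 177 CPM after it. Levels of all 3 were low before RA and much higher after it in both genotypes. Arhgap10, a GTPase-activating protein (chr8:77976995-78244582), had log2 ratios of -0.37 ± 0.1 and -0.65 ± 0.083, and Gpt2, the mitochondrial alanine transaminase (chr8:86219205-86254189), -0.50 ± 0.063 and -0.36 ± 0.062. Stra8, Adgra2, Neto2 and Mmp15 were below 20 CPM in every undifferentiated library and passed the level limit through the RA libraries. Of the 8 opposite members, 6 rose with RA in WT, Tuba3a fell (-2.40 ± 0.093; edgeR adjusted p = 1.62e-22), and Gpt2 changed by -0.12 ± 0.061 (edgeR adjusted p = 0.0769). Over all members, 269 of 852 rose with RA in WT, beside 40.9% of all genes tested. The rise of Stra8, Adgra2, Neto2 and Mmp15 was favoured by the level limit, so the count of 6 is not a result about the class.

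Members far above 1.5-fold included secreted signals and their modulators. Trh, the precursor of thyrotropin-releasing hormone (chr6:92219042-92221631), was at 51.3, 55.1 and 55 CPM in undifferentiated WT and 240.0, 218 and 245 CPM in C48S, and at 21.3, 15.7 and 17.3 CPM and 116, 112 and 108 CPM after RA. Sfrp1, a secreted antagonist of Wnt (chr8:23901518-23939648), was at 95.2, 99.2 and 105 CPM and 629, 617 and 548 CPM before RA and 31.3, 31.1 and 30 CPM and 94.7, 89 and 90.1 CPM after it. Apela, a peptide ligand of the apelin receptor (chr8:65481069-65489988), was at 19.4, 21.2 and 18.8 CPM and 72.8, 74.4 and 50.4 CPM before RA and 2.69, 1.2 and 1.95 CPM and 34.9, 34 and 35.9 CPM after it. No library of WT reached C48S for any of these, with log2 ratios of 2.12 and 2.64 for Trh, 2.58 and 1.57 for Sfrp1, and 1.73 and 4.19 for Apela. Apela was at most 21.2 CPM in WT and passed the level limit through the C48S libraries, which favours a high ratio.

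Membrane and signalling proteins made up the rest of those named. Emp1, an epithelial membrane protein (chr6:135339543-135360171), was at 9.44, 10.1 and 8.24 CPM in undifferentiated WT and 59.1, 59.2 and 53.5 CPM in C48S, and at 5.28, 4.46 and 5.66 CPM and 31.6, 31.8 and 30.4 CPM after RA, with the same log2 ratio in both states (2.62 ± 0.1 and 2.61 ± 0.12). Rassf4, a Ras-association domain protein (chr6:116609969-116650913), had log2 ratios of 3.13 ± 0.11 and 1.86 ± 0.12, Triml2, a protein of the TRIM-like family (chr8:43633578-43646918), 1.06 ± 0.081 and 2.53 ± 0.1, and Arhgef10, an activator of small GTPases (chr8:14961663-15051085), 2.45 ± 0.14 and 1.11 ± 0.076. Epha1, an ephrin receptor (chr6:42335421-42350202), was at 0, 0.252 and 0.217 CPM in undifferentiated WT and 21, 21.1 and 21 CPM in C48S, then 14.2, 11.6 and 11.4 CPM and 61.7, 64.5 and 52.6 CPM after RA. As WT was near or at 0 before RA, no fold is given for that state. Emp1 and Epha1 were below 20 CPM in every WT library and passed the level limit through the C48S libraries, which favours high ratios. Ncapd2, a condensin subunit that compacts mitotic chromosomes (chr6:125144970-125168664), was at 435, 427 and 432 CPM and 826, 814 and 841 CPM before RA and 362, 383 and 375 CPM and 794, 805 and 776 CPM after it, a ratio of 1.92- and 2.12-fold.

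**Figure D5:**
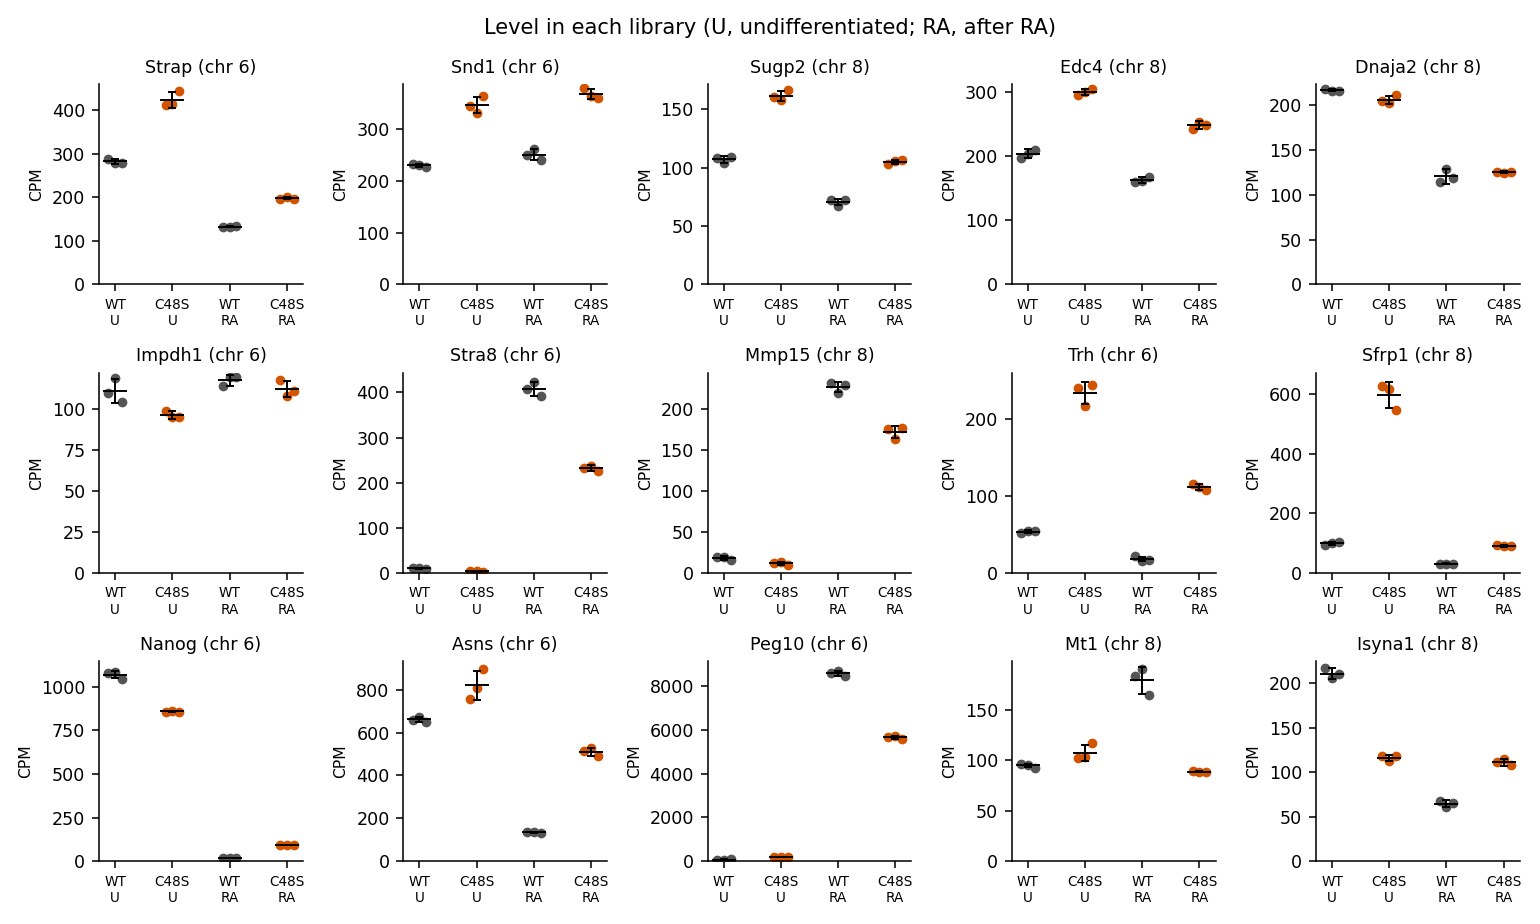
Level (CPM, from 0) in each library of 15 members, undifferentiated (U) and after RA, with WT in grey and C48S in orange; points are libraries and bars the mean ± SD of 3. Strap, Snd1, Sugp2 and Edc4 keep C48S above WT by a like factor in both states, Dnaja2 and Impdh1 lie close together, Stra8 and Mmp15 lie lower in C48S, Trh and Sfrp1 lie far higher, and the bottom row shows genes whose ratio changes between the states.

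Whether a member kept 1 ratio in both states was tested by the genotype by state interaction, the log2 ratio after RA minus that before it, which the choice of chromosomes did not use. The ratio was higher after RA in 301 members, beside 22.2% of all genes tested, and lower in 174, beside 17.2% (edgeR adjusted p under 0.05). These are 35.3% and 20.4% of the members. Among the equally filtered genes of the other autosomes the shares were 31.6% and 20.9%, so the members differed little from them. On chromosome 6, 145 were higher and 77 lower, and on chromosome 8, 156 and 97. The median interaction was 0.13 on chromosome 6, 0.07 on chromosome 8 and 0.07 on the other autosomes.

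Many single members changed their ratio between the states while the body of each chromosome stayed displaced. Of the 319 members near 1.5-fold in both states, 83 (26.0%) still passed the interaction test, and of the 426 whose class differed by state, 349 (81.9%) did. The classes are cut on the same ratios whose difference is tested. The contrast between these shares, and those of the moves below, thus follows from the sorting and only describes it. The largest moves were from near-equal before RA to near 1.5-fold after it (103 members, 88 past the test), from near 1.5-fold to above (100, 79 past the test), from above to near 1.5-fold (86, 62 past the test) and from near 1.5-fold to near-equal (53, 37 past the test). Of the 50 members opposite before RA, 8 stayed so, 15 became near-equal, 23 near 1.5-fold and 4 above. Across genes, the ratios of the 2 states, which share no library, correlated with Pearson's r = 0.38 (Spearman's rho = 0.34) over 382 genes of chromosome 6 and r = 0.29 (rho = 0.28) over 470 of chromosome 8, against r = 0.41 (rho = 0.34) over 6199 of the other autosomes. Genes are not independent replicates, and within a state they share the same libraries and scaling.

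On chromosome 6, the 4 members with the smallest adjusted p among those whose ratio was higher after RA were Nanog, A2m, Bcat1 and Asns. Nanog, a transcription factor of pluripotency (chr6:122684448-122691592), was at 1079, 1085 and 1044 CPM in undifferentiated WT and 857, 861 and 856 CPM in C48S, but at 16.4, 16 and 17.6 CPM and 94.4, 95 and 93.3 CPM after RA. C48S was below all WT libraries before RA and above all after it, an interaction of 2.82 ± 0.075 (edgeR adjusted p = 2.18e-25). A2m, the protease inhibitor alpha-2-macroglobulin (chr6:121612335-121656186), crossed in the same way: 166, 156 and 148 CPM and 31.8, 36.4 and 33 CPM before RA, 12, 9.95 and 9.86 CPM and 31.7, 29.9 and 32.2 CPM after it (interaction 3.78 ± 0.12; edgeR adjusted p = 7.81e-24). With RA, A2m fell in WT (log2 change -3.89 ± 0.084; edgeR adjusted p = 5.95e-30) and changed by -0.11 ± 0.079 in C48S (edgeR adjusted p = 0.228).

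Asns, asparagine synthetase (chr6:7675169-7693254), was at 660.4, 674 and 649 CPM in undifferentiated WT and 756, 808 and 894 CPM in C48S, and at 134, 135 and 133 CPM and 516, 526 and 489.7 CPM after RA (interaction 1.62 ± 0.072; edgeR adjusted p = 2.38e-19). Bcat1, a branched-chain amino acid transaminase (chr6:144939561-145021910), was at 694, 689 and 657 CPM and 1256, 1221 and 1232 CPM before RA and 68.3, 67.1 and 65.3 CPM and 370.5, 372 and 349 CPM after it (interaction 1.58 ± 0.066; edgeR adjusted p = 3.47e-20). Both enzymes fell with RA in each line, with log2 changes of -2.30 in WT and -0.68 in C48S for Asns and -3.35 and -1.76 for Bcat1 (largest edgeR adjusted p = 1.91e-14).

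Among the members of chromosome 6 whose ratio was lower after RA, Peg10, Mest, Col1a2 and Epha1 had the smallest adjusted p. Epha1 passed the level limit through the C48S libraries, so its place here is not read as a result. Peg10, a paternally expressed gene of retrotransposon origin (chr6:4747306-4760517), was at 71.9, 78.9 and 82.1 CPM in undifferentiated WT and 203, 208 and 182 CPM in C48S, then at 8582, 8689 and 8445 CPM and 5661, 5706 and 5583 CPM after RA. C48S was above WT before RA and below it after RA, an interaction of -1.95 ± 0.07 (edgeR adjusted p = 5.16e-22). Mest, a paternally expressed hydrolase (chr6:30723546-30748464), was at 90, 97.4 and 95.3 CPM and 113, 114 and 107 CPM before RA and 1153, 1201 and 1196 CPM and 649.6, 639 and 598 CPM after it (interaction -1.16 ± 0.069; edgeR adjusted p = 8.28e-16). Sgce, which lies beside Peg10 and encodes epsilon-sarcoglycan, was at 1.92 ± 0.381 CPM in undifferentiated WT and 6.17 ± 0.296 CPM in C48S. After RA it was at 58 ± 2.48 CPM and 42.8 ± 2.18 CPM (SD, n = 3). Sgce passed the level limit only through the RA libraries, so its interaction of -2.10 ± 0.2 is given with no p-value. Of the 5 members of the imprinted list, 4 had a lower ratio after RA and none a higher one, beside 20.4% and 35.3% of all members, and the fifth, Copg2, was near 1.5-fold in both states (0.61 ± 0.057 and 0.76 ± 0.058; edgeR adjusted p of the interaction = 0.136). The 4 with a lower ratio were Peg10, Mest, Ppp1r9a and Sgce, and the call of Sgce shares the limit given for it. As Peg10 and Sgce are neighbours, the 4 are not all separate loci.

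Col1a2, a chain of fibrillar collagen (chr6:4504814-4541544), was at 20.3, 13.7 and 18.7 CPM in undifferentiated WT and 40.2, 39.4 and 50.8 CPM in C48S, and at 31.4, 30.2 and 32.4 CPM and 15.6, 16 and 15.4 CPM after RA (interaction -2.32 ± 0.16; edgeR adjusted p = 2.16e-13). Col1a2 is also 1 of 16 markers of fibroblasts and feeder cells, whose summed level was 3240 to 3429 CPM in undifferentiated WT, 3214 to 4078 CPM in C48S, 1554 to 1676 CPM in WT after RA and 2495 to 2686 CPM in C48S after RA. None of the 16 was at 0 throughout a group, and Fn1, fibronectin, gave most of the sum, with means of 2642 CPM in undifferentiated WT, 2837 CPM in undifferentiated C48S, 1046 CPM in WT after RA and 1992 CPM in C48S after RA. The part of such cells in the result for Col1a2 was not tested. For Epha1, described above, no size of the change is given, since it would contain the undifferentiated WT level near 0.

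On chromosome 8, Rab11fip1, Isyna1, Pdp2 and Adgre5 had the smallest adjusted p among the members whose ratio was higher after RA. Rab11fip1, an effector of recycling endosomes (chr8:27628801-27664674), was at 170.3, 179 and 178 CPM in undifferentiated WT and 90.8, 91.3 and 89.8 CPM in C48S, and at 179, 174 and 168 CPM and 296, 294 and 302 CPM after RA (interaction 1.73 ± 0.068; edgeR adjusted p = 5.54e-21). Isyna1, the enzyme of inositol synthesis (chr8:71047023-71049940), was at 217, 205 and 210.3 CPM and 118, 112 and 118 CPM before RA and 67.9, 60.5 and 65.8 CPM and 111, 115 and 108 CPM after it (interaction 1.64 ± 0.077; edgeR adjusted p = 7.98e-19). Pdp2, a phosphatase that activates pyruvate dehydrogenase (chr8:105318083-105325658), was at 224, 223 and 208 CPM and 81.1, 75.2 and 83.1 CPM before RA and 14.3, 13.3 and 11.4 CPM and 23.4, 22.8 and 23.4 CPM after it (interaction 2.29 ± 0.11; edgeR adjusted p = 5.76e-19). In these 3, C48S was below every WT library before RA and above every one after it. Adgre5, an adhesion receptor of leukocytes and other cells (chr8:84449880-84467955), overlapped before RA (102, 110.5 and 110.2 CPM and 106, 103 and 89.1 CPM) and was far higher in C48S after RA (18.1, 16.4 and 20.9 CPM and 70.8, 76.6 and 78.4 CPM; interaction 2.14 ± 0.11; edgeR adjusted p = 1.06e-17).

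Mt1 and Mt2, metallothioneins that bind zinc and copper, both had a lower ratio after RA. Mt1 (chr8:94905710-94906955) was at 96.2, 95.5 and 92.7 CPM in undifferentiated WT and 102, 103 and 117 CPM in C48S, and at 183, 190.5 and 164 CPM and 89.3, 88.3 and 88.8 CPM after RA. Its neighbour Mt2 (chr8:94899292-94900196) was at 138, 146 and 145 CPM and 194, 191 and 198 CPM before RA and 279.8, 264 and 244 CPM and 181, 179.8 and 170.1 CPM after it. C48S was above WT before RA and below it after RA for both, with interactions of -1.19 ± 0.083 and -1.01 ± 0.072 (edgeR adjusted p = 4.17e-14 and 8.74e-14). Man2b1, the lysosomal alpha-mannosidase (chr8:85809899-85824911), went from log2 ratios of 0.81 ± 0.052 to -0.19 ± 0.05 (interaction -0.99; edgeR adjusted p = 1.26e-13). Atp11a, a phospholipid flippase (chr8:12807014-12918728), stayed above 1.5-fold but fell from 2.02 ± 0.053 to 0.93 ± 0.051 (interaction -1.09; edgeR adjusted p = 1.48e-14).

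The response of members to RA itself was like that of other genes. In WT 269 members rose and 450 fell, beside 40.9% and 37.4% of all genes tested, and in C48S 281 rose and 432 fell, beside 39% and 34.6% (edgeR adjusted p under 0.05). As shares of the members these are 31.6% and 52.8% in WT and 33.0% and 50.7% in C48S. The equally filtered genes of the other autosomes gave 29.7% and 55.9% in WT and 28.7% and 53.8% in C48S. The median size of the RA change in WT was 0.46 for members near 1.5-fold in both states, 0.48 for near-equal ones and 0.82 for those whose class differed by state, against 0.59 for all members; the WT libraries enter both that change and the classes.

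Many gene groups on these chromosomes stood above the same group on other autosomes by about the displacement of the chromosomes. Zinc finger genes gave the largest such group, 24 members with a median log2 ratio of 0.57 before and 0.71 after RA, 0.60 and 0.62 above the 164 zinc finger genes of the other autosomes. The 18 solute carriers had 0.60 and 0.81, or 0.62 and 0.71 above 80 others. The 11 genes of vesicle coats and fusion had 0.61 and 0.72, or 0.52 and 0.66 above 49 others, and 7 of them were near 1.5-fold in both states. Among these were Copg1 and Copg2, paralogous coat subunits on the same chromosome, at 0.58 ± 0.046 and 0.72 ± 0.047 and at 0.61 ± 0.057 and 0.76 ± 0.058. The 6 helicases of the DEAD and DEAH families had 0.68 and 0.81, or 0.65 and 0.68 above 32 others. Not every group did so. Differences before and after RA were 0.9 and 1.04 for 6 redox genes and 1.23 and -0.37 for 5 imprinted genes. They were 0.51 and 0.05 for 3 chaperones, -0.26 and 0.69 for 3 tubulins and 0.35 and -0.3 for 7 pluripotency genes. All values in this paragraph are log2 differences, and lists and members were chosen with results of these data known.

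Genes whose products join large complexes were displaced like the rest, around a group level of their own. Of the cytosolic ribosomal protein genes, Rpl32 was at 0.40 before and 0.33 after RA, and Rpl13 at 0.35 and 0.20. The median of the 66 on other autosomes was -0.19 before and -0.28 after RA. Near-identical pseudogene copies make the counts of these genes uncertain. The 7 mitochondrial ribosomal protein genes stood 0.57 and 0.66 above 47 others, and the 6 genes of oxidative phosphorylation 0.62 and 0.47 above 63 others. In both states 5 of those 6 were near 1.5-fold, among them Cox4i1, a subunit of cytochrome c oxidase, at 0.59 ± 0.12 and 0.34 ± 0.12. The vacuolar ATPase, the proton pump of lysosomes, had 4 members 0.55 and 0.51 above 9 others, Atp6v1f among them at 0.70 ± 0.075 and 0.61 ± 0.077. The proteasome had a single member, Psmd7, at 0.46 ± 0.054 and 0.78 ± 0.058.

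The ubiquitin enzymes and the polymerase and mediator genes had lower ratios before RA than after it, as did the zinc finger genes and solute carriers above. On other autosomes the medians also rose, from -0.11 to 0.03 for 54 ubiquitin enzymes and from -0.05 to 0.03 for 72 polymerase and mediator genes. The differences from those genes before and after RA were 0.55 and 0.69 for ubiquitin enzymes and 0.43 and 0.67 for polymerase and mediator genes. The 5 ubiquitin enzymes had medians of 0.44 and 0.72, and 4 of them, Ube2h, Usp39, Usp38 and Usp10, had a higher ratio after RA by the interaction test. Of the 7 polymerase, mediator and general transcription factor genes, 5 had a higher ratio after RA and none a lower one, Polr2c at 0.60 ± 0.059 and 1.05 ± 0.064, and Med26 was near-equal in both states (0.21 ± 0.072 and 0.20 ± 0.076). Of all members, 35.3% had a higher and 20.4% a lower ratio after RA. All 7 fell with RA in both lines, beside 52.8% of all members in WT and 50.7% in C48S.

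The 7 pluripotency genes had a median log2 ratio of 0.32 before RA and 0.93 after it, against -0.04 and 1.23 for 27 on other autosomes, and all 7 fell with RA in both lines, beside 52.8% of all members in WT and 50.7% in C48S. Of these, Nanog, Gdf3 and Zfp42 had a higher ratio after RA and none a lower one, beside 35.3% and 20.4% of all members, so the share that was higher is near that of the members at large. Gdf3, a ligand of the TGF-beta family, was at 146 ± 10.1 CPM in undifferentiated WT and 182 ± 4.89 CPM in C48S, and at 9.66 ± 0.87 CPM and 41.3 ± 2.53 CPM after RA (SD, n = 3; interaction 1.79 ± 0.11; edgeR adjusted p = 6.85e-16). Zfp42, a zinc finger marker of the stem cell state, was at 75.3 ± 3.13 CPM and 82.1 ± 6 CPM before RA and 12.9 ± 0.702 CPM and 33.1 ± 2.62 CPM after it (interaction 1.23 ± 0.12; edgeR adjusted p = 7.38e-11). Cdh1, the adhesion molecule E-cadherin, and Tead4, a transcription factor of the Hippo pathway, were near 1.5-fold in both states, at 0.77 ± 0.046 and 0.67 ± 0.047 and at 0.71 ± 0.08 and 0.85 ± 0.11. Sall1, a zinc finger factor, was above in both, at 0.99 ± 0.078 and 0.93 ± 0.11.

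Hoxa5, Hoxa7 and Hoxa9, transcription factors that pattern the body axis and respond to RA, passed the level limit only through RA libraries, for Hoxa7 and Hoxa9 only those of C48S, so their levels are given with no test. Hoxa9 was at 0.944, 1.51 and 1.52 CPM in undifferentiated WT and 2.12, 2.77 and 1.45 CPM in C48S, and at 8.7, 9.61 and 9.38 CPM and 217, 219.9 and 218 CPM after RA. Hoxa7 was at 1.89, 1.51 and 2.06 CPM and 6.02, 6.07 and 5.17 CPM before RA and 10.1, 9.09 and 7.13 CPM and 68.1, 68.7 and 66.2 CPM after it. Hoxa5 was at 0.734, 0.84 and 0.976 CPM and 2.46, 1.81 and 3.31 CPM before RA and 29.8, 33.2 and 38.3 CPM and 80.4, 88.6 and 76.2 CPM after it. In all 3, every RA library of a genotype was above its undifferentiated libraries, and every C48S library after RA was above those of WT.

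The 6 redox genes had medians of 0.73 before and 1.05 after RA, or 0.9 and 1.04 above 25 on other autosomes. The 5 glycolysis genes had 0.47 and 0.8, or 0.54 and 0.74 above 12 others. Hmox1, the heme-degrading oxygenase, was at 81.8 ± 5.86 CPM in undifferentiated WT and 180.4 ± 13.8 CPM in C48S, and at 41.4 ± 2.69 CPM and 101 ± 1.19 CPM after RA (SD, n = 3), with log2 ratios of 1.14 ± 0.061 and 1.28 ± 0.067. Gsr, glutathione reductase, went from 0.56 ± 0.047 to 1.41 ± 0.06 (edgeR adjusted p of the interaction = 2.7e-11), and Nqo1, a quinone reductase, from 0.89 ± 0.075 to 1.25 ± 0.083 (edgeR adjusted p = 0.0102). In glycolysis, Hk2, a hexokinase, overlapped before RA (0.12 ± 0.05) and was higher in C48S after it (1.23 ± 0.053; edgeR adjusted p of the interaction = 8.5e-15), and Slc2a3, a glucose transporter, went from 0.47 ± 0.044 to 1.40 ± 0.044 (1.27e-14). Tpi1 and Gapdh, enzymes of the lower pathway, were near 1.5-fold in both states. Of the 5 glycolysis members, 2 had a higher ratio after RA, and of the 6 redox members 2 had a higher and 2 a lower one. With 35.3% of all members higher and 20.4% lower, such counts are not a result about these groups.

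All 17 cell cycle and replication genes of the list that lie on these chromosomes passed the level limit, with medians of 0.73 before and 0.67 after RA, or 0.81 and 0.46 above 41 on other autosomes. Among them, 4 had a higher ratio after RA and 6 a lower one, beside 35.3% and 20.4% of all members. Ccnd2, a D-type cyclin, was at 36 ± 1.57 CPM in undifferentiated WT and 59.7 ± 2.4 CPM in C48S, and at 87.2 ± 2.26 CPM and 391 ± 10.1 CPM after RA (SD, n = 3; interaction 1.44 ± 0.08; edgeR adjusted p = 1.07e-16). Cdkn1b, an inhibitor of cyclin-dependent kinases, was above in both states at 1.94 ± 0.086 and 1.46 ± 0.084. The helicase subunits Mcm2 and Mcm5 went from 0.49 to 1.37 and from 0.61 to 0.96 (edgeR adjusted p of the interaction = 4.22e-14 and 0.00027). The GINS subunits Gins2 and Gins3, which work with them at the replication fork, went down from 0.61 to 0.13 and from 1.15 to 0.47 (0.00096 and 0.000125), while Gins4 was near 1.5-fold in both states (0.43 and 0.31). Cdt1, which loads that helicase, was near 1.5-fold in both states as well (0.62 ± 0.053 and 0.67 ± 0.054).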

How the data were processed

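Per the labels' protocols, total RNA was purified with a column kit and depleted of ribosomal RNA. The deposited files hold unnormalized counts for each gene, made by the authors with featureCounts 1.6.3 on read pairs with strand option 2, assignment by largest overlap and Ensembl GRCm39 release 104, per the file headers. STAR 2.7.9a, DESeq2 and mm39 are named in the submitters' processing notes. Gene names and protein-coding status came from GENCODE M21, matched by identifier for 52083 of 55416 genes (94.0%), and coordinates from the files.

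Libraries were grouped by their titles. The treatment field gives differing RA days, and day 2 of the titles and protocol was used. Genes were fitted with edgeR 4.0.16 in R 4.3.3 (filterByExpr, TMM, robust quasi-likelihood, 1 mean per group, 8 residual degrees of freedom), adjusted by Benjamini-Hochberg over 17940 genes and called under 0.05. Errors of log2 ratios are SE from that fit. The limit of 20 CPM used plain library totals, while levels shown are TMM-scaled. Fold limits of the classes are multiples of log2 1.5.

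Named genes were, per chromosome, the 4 most extreme of each class (for the near 1.5-fold and near-equal classes those closest to their centre in both states, at a mean of at least 100 CPM), the 4 smallest interaction p-values in each direction, and members of gene lists; a few of these are not reported here. Members and lists were chosen with earlier results of these data known. Same-numbered replicates did not deviate together (r from -0.0529 to 0.029), so the numbers do not pair the libraries. The fit was tested on simulated data. No library was left out, and the depth given leaves counting error small at 20 CPM. Alternatives were RLE scaling, TMM over other autosomes, no low-count filter, DESeq2 1.42.0, each state alone, a replicate block, other CPM and class limits and each library left out.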

Additional observations from a re-analysis of the deposited data

Results flagged for a closer look

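The following ratios of C48S to WT differed between the states by the test of the difference itself (edgeR's genotype by state interaction, Benjamini-Hochberg adjusted p under 0.05), which is why they are listed. The log2 ratio was higher after RA in 301 members and lower in 174. Among the genes with the smallest adjusted p on chromosome 6, the ratio after RA minus that before it was 2.82 for Nanog, 3.78 for A2m, 1.58 for Bcat1 and 1.62 for Asns, and -1.95 for Peg10, -1.16 for Mest and -2.32 for Col1a2. The fitted value for Epha1, -4.64, contains an undifferentiated WT level of 0 to 0.252 CPM, depends on how the fit treats counts near 0 and is neither a measured size nor a bound. Epha1 also passed the level limit through the C48S libraries, so its call is not read as a result. On chromosome 8 the difference was 1.73 for Rab11fip1, 2.29 for Pdp2, 1.64 for Isyna1 and 2.14 for Adgre5, and -1.09 for Atp11a, -1.19 for Mt1, -1.01 for Mt2 and -0.99 for Man2b1. In Nanog, A2m, Rab11fip1, Pdp2 and Isyna1 all C48S libraries were below WT before RA and above it after RA, and in Peg10, Mest, Col1a2, Mt1, Mt2 and Man2b1 the reverse held.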

How the results depend on the processing

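No called value reversed under any alternative tried. The median log2 ratio of chromosome 6 before RA (0.57) was 0.55 with RLE scaling, 0.58 with TMM over other autosomes, 0.58 without the low-count filter, 0.56 with DESeq2, 0.56 with each state fitted alone, and 0.59 and 0.53 at limits of 5 and 50 CPM. After RA (0.66) it was 0.61 with RLE, 0.66 without the filter, 0.62 with DESeq2, 0.64 with each state alone, and 0.66 and 0.68 at 5 and 50 CPM. Chromosome 8 after RA (0.59) was 0.54 with RLE, 0.55 with DESeq2, 0.57 with each state alone and 0.59 at 50 CPM. These moves exceed the spread between libraries because that spread is small. Leaving out each library gave 0.56 to 0.58 and 0.63 to 0.66 for chromosome 6 before and after RA, and 0.49 to 0.53 and 0.56 to 0.59 for chromosome 8. Relative to the other autosomes, chromosome 6 before RA was 0.58 without the third undifferentiated C48S library. Class shares depend on the limits: with limits of 0.25 times log2 1.5 to either side the near 1.5-fold class held 13.5% and the near-equal class 0.822% of members. By 95% intervals these were 14.3% and 0.939%, and the above class 14.6%. Same-numbered libraries are not paired by the labels or the data; with the number as a replicate block, 34.9% and 20.2% of members had a higher and a lower ratio after RA (35.3% and 20.4% without it). Of the values of single named genes, 2400 kept their side of the threshold, 34 lost the call and 4 gained one. Direction was compared only for values called in the main fit. Those gained include the interactions of Arhgap10 (without C48S undifferentiated replicate 3) and Mmp15 (without WT undifferentiated replicate 3). The 1 clone, the reads shared with near-identical copies and the yardstick of 1.5 limit what the classes can say.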
